A study of Mus musculus with 37 samples.

Results

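The genes followed here are the Hox genes of paralogue groups 8 and 9, which are Hoxb8, Hoxc8, Hoxd8, Hoxa9, Hoxb9, Hoxc9 and Hoxd9. They were taken by name, and all 7 were present among the 39 Hox genes of the log2 RPKM table and the 35542 genes of the count table. RPKM is the number of reads per kilobase of transcript, scaled to library size, so that levels of genes of different length can be compared.

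Hox genes encode homeodomain transcription factors that sit in 4 clusters, called A to D. Genes of one paralogue group descend from a common ancestor and occupy matching places in the clusters. Along a cluster, genes near the 3′ end are switched on earlier and further towards the head, and genes near the 5′ end later and further towards the tail. Groups 8 and 9 lie towards the middle of this order and are best known for patterning the thoracic part of the vertebral column, its ribs and the spinal cord at that level. In the tailbud, where progenitors of the trunk and tail reside, the set of Hox genes that is active is thought to be carried into the somites that these cells form.

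RNA-seq was performed on tailbuds of 37 mouse embryos at embryonic day 8 to 8.5, with 6 to 11 somites, one library per embryo, to compare embryos with and without maternal SMCHD1, a protein of chromatin needed to keep certain genes silent. All embryos were F1 offspring of C57BL/6 dams and Castaneus (Cast) sires. The wt embryos were Smchd1 fl/+, from Smchd1 fl/fl dams without the Cre transgene. The mat del embryos were Smchd1 del/+, from Smchd1 del/fl dams carrying MMTV-Cre T/+, in which a transgene driven by the mouse mammary tumour virus promoter deleted the floxed allele in the oocyte. Both groups therefore carried an altered maternal allele, floxed or deleted, and an intact paternal one, and mat del embryos lacked the oocyte supply as well as the maternal copy. There were 21 wt embryos (4, 4, 3, 3, 4 and 3 at 6, 7, 8, 9, 10 and 11 somites) and 16 mat del embryos (4, 3, 2, 2, 3 and 2). Of these, 13 wt and 11 mat del embryos were female, including every embryo at 6 somites and every mat del embryo at 8 and 9 somites. The labels name single embryos but no litters, so p-values measure the spread between these embryos.

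Libraries held 916444 to 80579115 counts, with medians of 11959774 in wt and 14215129 in mat del. The shallowest library was mat del 6 somites replicate 3. Counts of the 7 genes ranged from 13 for Hoxd9 to 30301 for Hoxb9. Smchd1 was at 149 ± 22.8 CPM (SD, n = 21) in wt and at 88.7 ± 13.3 (SD, n = 16) in mat del embryos. CPM are counts scaled to library size and to TMM factors over all 37 libraries. The log2 difference of Smchd1 was -0.74 (SE 0.075, edgeR quasi-likelihood test, adjusted p = 1.45e-07). Gm42418, a gene model that collects ribosomal RNA reads, took 2.65% and 1.76% of the counts in mat del 6 somites replicates 1 and 2, and between 0.171% and 1.22% in the other libraries. Where leaving out these libraries moved one of the 7 genes across an unadjusted p of 0.05, its value without them is given too. Marker genes of the tailbud were present in every library, with summed levels of 626 to 1549 CPM over 8 genes. Of the somite markers, Pax1 was at 0 in all 37 libraries and Uncx in 34. Meox2 was at 0 in 10 libraries, Tcf15 in 4, Meox1 in 1 and Foxc2 in 0. Summed levels of the somite markers were 3.14 to 22.2 CPM in wt and 4.38 to 69.0 CPM in mat del embryos, so somite RNA was not absent.

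The 7 genes lie on 4 chromosomes (GRCm38, deposited coordinates). Hoxa9 is on chromosome 6 at 52223100 to 52231089, on the minus strand. Hoxb9 (96271457 to 96276595) and Hoxb8 (96281905 to 96285315) are neighbours on the plus strand of chromosome 11, separated by 5309 bases. Hoxc9 (102976439 to 102985099) and Hoxc8 (102990607 to 102994111) are neighbours on the plus strand of chromosome 15, separated by 5507 bases. Hoxd9 (74697727 to 74700208) and Hoxd8 (74704615 to 74707933) are neighbours on the plus strand of chromosome 2, separated by 4406 bases. The span of Hoxc5 covers Hoxc8 and Hoxc9, and that of the antisense gene Hoxd3os1 overlaps Hoxd8, but in the GENCODE M21 annotation neither shares an exonic base with these genes. Hoxd3os1 held 1929 counts in all against 20852 for Hoxd8. The exons of Hoxa9 cover 5580 bases, against 2136 to 2832 for the others, so its RPKM is spread over a longer model.

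The stretch before a gene's start is shown for Hoxb8 and Hoxd8, because Hoxd8 passed the test for a rise over somites and its paralogue Hoxb8 did not, and because both windows hold letters that were searched. RefSeq promoter sequence (GRCm38.p6) was at hand for 4 of the 7 genes, Hoxb8, Hoxd8, Hoxa9 and Hoxd9. Each window runs from 250 bases before the start to 50 after it, and was searched on both strands for TTTATG, a motif of the Cdx factors that activate trunk Hox genes, for TGATNNAT, bound by Hox proteins together with Pbx, and for TCAAAG, bound by the Tcf and Lef factors of the Wnt pathway. The 250 bases before the start are printed, 5′ to 3′, with the matches in capitals.
Hoxb8, chr11:96281655-96281904, plus strand: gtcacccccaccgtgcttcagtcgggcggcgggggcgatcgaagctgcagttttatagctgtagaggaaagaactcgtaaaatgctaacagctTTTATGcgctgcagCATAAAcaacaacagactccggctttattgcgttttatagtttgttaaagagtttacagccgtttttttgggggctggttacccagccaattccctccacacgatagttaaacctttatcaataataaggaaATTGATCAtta
Hoxd8, chr2:74704365-74704614, plus strand: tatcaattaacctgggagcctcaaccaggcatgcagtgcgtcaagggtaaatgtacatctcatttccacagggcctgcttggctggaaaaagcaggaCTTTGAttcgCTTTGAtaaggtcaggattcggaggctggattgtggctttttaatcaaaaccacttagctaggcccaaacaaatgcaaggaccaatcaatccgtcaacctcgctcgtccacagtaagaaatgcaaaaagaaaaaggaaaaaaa

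The Hoxb8 window held the Cdx letters at 2 places, beginning at bases -157 and -143 from the start, and the Pbx with Hox letters at 1 place, beginning at base -11. The Hoxd8 window held the Tcf and Lef letters at 2 places, beginning at bases -153 and -143. The Hoxa9 and Hoxd9 windows held none of the 3. Among 32851 promoter windows of the same length, the Cdx letters were found in 11.9%, the Pbx with Hox letters in 8.85% and the Tcf and Lef letters in 5257 of them. The motifs do not overlap each other in these windows. A match describes letters and shows no binding.

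The clusters also hold the microRNAs of the miR-196 family, which are known to act on Hox transcripts, Hoxb8 above all. Mir196b lies within the annotated span of Hoxa9, at chromosome 6, 52230129 to 52230150 on the minus strand, and sites of this family are shown because the members differ in them. Both mature forms carry the same seed (bases 2 to 8, in capitals).
mmu-miR-196a-5p: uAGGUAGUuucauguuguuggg
mmu-miR-196b-5p: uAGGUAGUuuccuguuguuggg
The best ungapped match to miR-196a-5p in the 3′ UTR of Hoxb8 paired 21 of 22 bases, with paired bases in capitals, and the one exception was a G with U wobble at base 5 of the microRNA.
Hoxb8 3′ UTR, chr11:96284888-96284909, plus strand: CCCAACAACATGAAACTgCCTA

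In the other 6 genes the best match paired 13 to 15 bases. An exact complement of the seed, ACTACCT, occurred at 2 places in Hoxc8 and at 1 place in Hoxa9, and in none of the other 5, against 5.94% of 21682 genes with an annotated 3′ UTR. Mature microRNAs are not measured in poly(A) libraries, and no relation of these sites to the levels was tested.

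Levels over all stages were first set in order. In wt embryos, mean log2 RPKM was 6.93 ± 0.21 (SD, n = 21) for Hoxb9, 6.09 ± 0.40 for Hoxc8, 5.11 ± 0.22 for Hoxb8, 4.40 ± 0.61 for Hoxa9, 4.15 ± 0.40 for Hoxd9, 3.69 ± 0.61 for Hoxd8 and 3.54 ± 0.81 for Hoxc9. Within embryos, Hoxb9 exceeded Hoxc8 in 21 of 21 and Hoxc8 exceeded Hoxb8 in 21 of 21, by 0.84 ± 0.39 and 0.98 ± 0.47 (SD of the within-embryo difference). Most neighbours lower in the order were less clearly apart. Hoxd9 over Hoxd8 was 0.45 ± 0.35, with Hoxd9 higher in 20 of 21 embryos. Hoxa9 over Hoxd9 was 0.25 ± 0.34 and Hoxd8 over Hoxc9 was 0.15 ± 0.30, both within their SD, and Hoxb8 over Hoxa9 was 0.71 ± 0.70. The order in mat del embryos was the same for the first 5 genes, while Hoxc9 (3.50 ± 0.77, n = 16) stood before Hoxd8 (3.38 ± 0.85), by 0.13 ± 0.36. Hoxb9 and Hoxc9, of the same paralogue group, stood at opposite ends of the order in wt.

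The question of the somite series was how these genes change as the tail grows. In wt embryos Hoxc9, Hoxd8, Hoxa9, Hoxd9 and Hoxc8 rose from 6 to 11 somites, by 3.85-fold, 2.78-fold, 2.73-fold, 1.83-fold and 1.74-fold over the 5 somites of the fitted line. Neither gene of the B cluster did. That is 5 of 7 members that passed the threshold of an adjusted p under 0.05 as rising, against 3.13% of 15148 genes tested. The median slope was 0.17 on the log2 scale per somite over the 7 genes and about 0 (-0.0018) over all genes.

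Hoxc9, known for setting the identity of motor neurons in the thoracic spinal cord, showed the steepest slope. In wt embryos of 6 to 8 somites its log2 RPKM ran from 2.11 to 3.53 with a median of 2.79, and in those of 9 to 11 somites from 3.67 to 4.86 with a median of 4.30. No wt embryo of the early window reached the lowest of the late window. Its slope was 0.39 (SE 0.049, edgeR quasi-likelihood test, adjusted p = 3.67e-05).

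Hoxd8 ran from 2.38 to 3.72, with a median of 3.19, at 6 to 8 somites and from 3.65 to 4.58, with a median of 4.30, at 9 to 11 somites. The windows overlapped slightly, and the slope was 0.30 (SE 0.036, adjusted p = 2.71e-05). Hoxa9, a gene well known from blood development as well as from the trunk, ran from 3.45 to 4.62 and then from 4.47 to 5.28, with medians of 3.75 and 4.96. Its slope was 0.29 (SE 0.040, adjusted p = 7.87e-05).

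Hoxd9 and Hoxc8 rose less. Hoxd9, known from the limbs and the lumbosacral spine, ran from 3.41 to 4.23 early and from 4.11 to 4.74 late, with a slope of 0.17 (SE 0.029, adjusted p = 4.95e-04). Hoxc8, known for its part in patterning the ribs, ran from 5.53 to 6.29 early and from 5.65 to 6.71 late, with a slope of 0.16 (SE 0.032, adjusted p = 0.0037). Its windows overlapped most among the 5 rising genes, down to an embryo of 10 somites at 5.65.

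Hoxb9 and Hoxb8 did not pass. Hoxb9, which acts with its paralogues in rib patterning, held medians of 6.91 early and 6.96 late, and its slope was -0.021 (SE 0.026, adjusted p = 0.691). Hoxb8, also known from blood progenitors, had medians of 5.14 and 5.03. Its slope was -0.069 (SE 0.024, edgeR unadjusted p = 0.00766, adjusted p = 0.0819). The adjusted p became 0.0442 with DESeq2. In females alone the slope was -0.030 (edgeR unadjusted p = 0.125, adjusted p = 0.323). Neither gene passed in edgeR, and the standard errors leave room for a small fall.

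**Figure D1:**
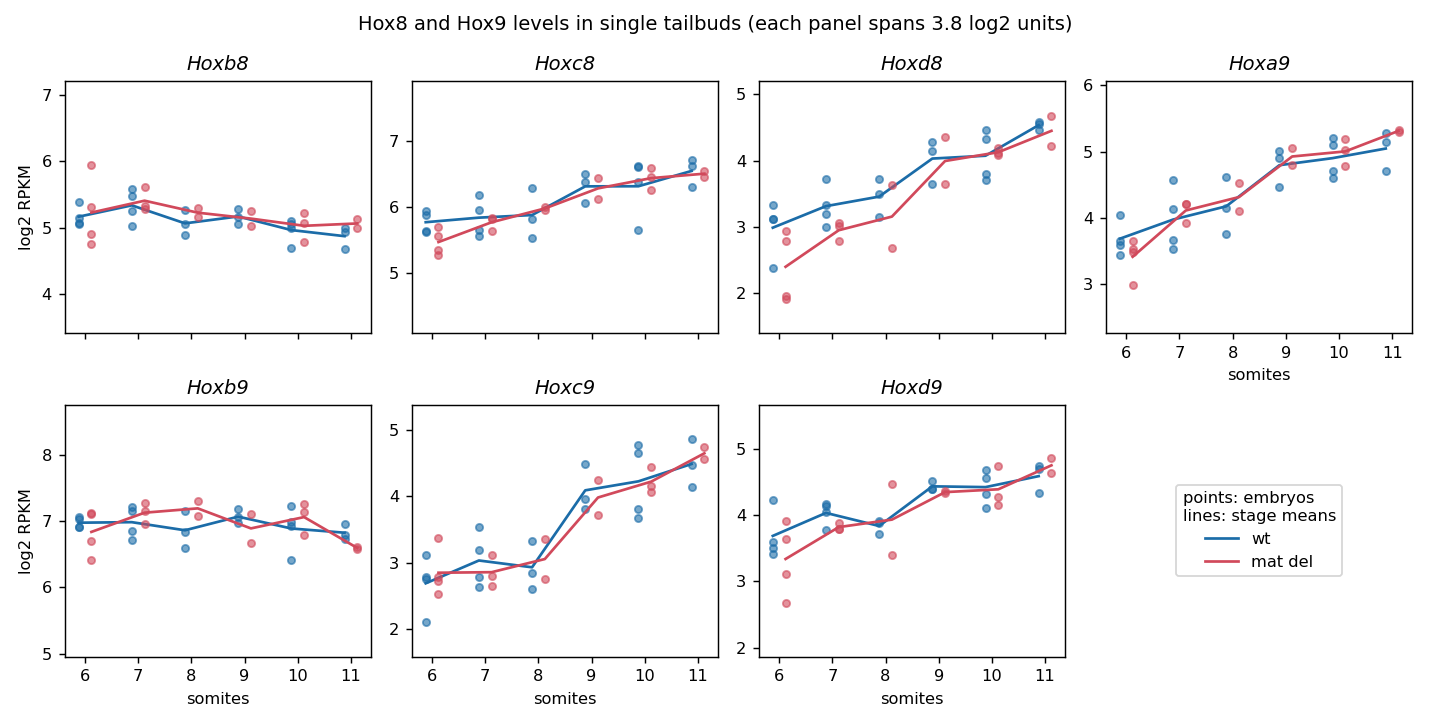
Deposited log2 RPKM of the 7 genes (vertical axis) against somite number (horizontal axis), with 1 point per embryo and lines through stage means, wt in blue and mat del in red. Every panel spans the same number of log2 units; 5 genes climb in both genotypes, and Hoxb8 and Hoxb9 do not.

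The same 5 genes passed in mat del embryos, against 1.93% of 15477 genes tested as rising. Slopes were 0.44 (SE 0.047, adjusted p = 3.31e-05) for Hoxd8, 0.41 (SE 0.043, adjusted p = 2.68e-05) for Hoxc9, 0.37 (SE 0.031, adjusted p = 5.23e-06) for Hoxa9, 0.23 (SE 0.043, adjusted p = 0.00456) for Hoxd9 and 0.23 (SE 0.022, adjusted p = 1.03e-05) for Hoxc8. Over 5 somites these amount to 4.54-fold, 4.07-fold, 3.55-fold, 2.25-fold and 2.18-fold. In Hoxc9 the highest embryo of 6 to 8 somites, at 3.37 log2 RPKM, stayed below the lowest of 9 to 11, at 3.71. The same held for Hoxa9 (4.53 and 4.78), Hoxc8 (6.00 and 6.12) and Hoxd8 (3.631 and 3.639), but not for Hoxd9 (4.46 and 4.15). The slopes of the B-cluster genes were -0.056 (SE 0.035, adjusted p = 0.431) for Hoxb8 and -0.028 (SE 0.036, adjusted p = 0.743) for Hoxb9. Without mat del 6 somites replicates 1 and 2 they were at -0.10 (unadjusted p = 0.00359, adjusted p = 0.103) and -0.072 (unadjusted p = 0.0357, adjusted p = 0.30), farther below 0 but still short of the threshold. In female embryos alone the Hoxd9 slope was 0.21 with an adjusted p of 0.0783.

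**Figure D2:**
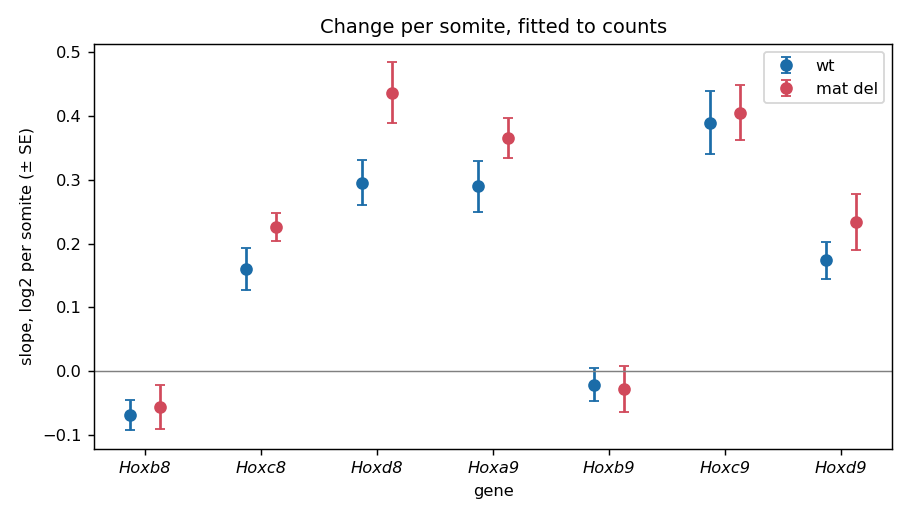
Slope of each gene in log2 units per somite (vertical axis), fitted to counts in wt (blue) and mat del (red) embryos, with bars of 1 SE. Hoxb8 and Hoxb9 lie at or just below 0 and the other 5 lie between 0.16 and 0.44.

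Other RNA moved over the same stages. Of the endoderm markers 3 of 6 fell in wt (Apob, Ttr and Sox17), against 3.51% of all genes tested as falling, with a summed level of 365 to 1615 CPM at 6 somites and 19.2 to 271 at 11 somites, while 0 of 6 passed in mat del, where 1.14% of all genes fell. In the test of a slope difference between the genotypes 0 genes passed after adjustment. Primitive erythroid markers were at 39.8 to 141 CPM in wt at 6 somites and 586 to 1179 at 11 somites, and 1 of 6, the embryonic globin Hbb-y, passed as rising in both genotypes. Of the tailbud list Cyp26a1 rose and Nkx1-2 fell in both genotypes, and endothelium had 2 of 5 rising (Cdh5 and Tal1) in both. Of the rest in wt, neural tube had 1 of 4 rising (Sox1), lateral plate mesoderm 1 of 5 falling (Gata4), and somite 0 of 2 and heart 0 of 3. The part of these shifts in the rise of the Hox genes was not tested. In bulk tissue, fewer cells of a type and less RNA per cell cannot be told apart.

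Differences in slope between members were tested by permuting somite number over embryos, on the within-embryo difference in log2 RPKM of each of the 21 pairs. This test was chosen after the values had been seen, and it held no sex term. The B-cluster genes had already been seen not to rise in either genotype, while the others did. Pairs across that split restate it and are no independent evidence of it. Pairs of other genes were not tested in this way, so the counts of pairs have no background share. In wt, 18 of 21 pairs passed at an adjusted p under 0.05 over the 21 pairs, including all 10 pairs of a B-cluster gene with another. Hoxb9 climbed less than its paralogue Hoxc9 by 0.41 per somite (SE 0.052, p = 1e-05, adjusted p = 2.62e-05, permutation test, n = 21), where that p is the smallest these permutations can give. The 3 pairs that did not pass were Hoxb8 with Hoxb9 (-0.047, SE 0.023), Hoxc8 with Hoxd9 (-0.017, SE 0.032) and Hoxd8 with Hoxa9 (0.0052, SE 0.028). The last pair joins genes of different cluster and different group. Within clusters, Hoxc8 climbed less than Hoxc9 by 0.23 (SE 0.033, adjusted p = 3.50e-05, permutation test), and Hoxd8 climbed more than Hoxd9 by 0.12 (SE 0.035, adjusted p = 0.00364, permutation test), so the gene of group 9 was the steeper in the C cluster and the gene of group 8 in the D cluster. In mat del, 13 of 21 pairs passed, again with all 10 pairs of a B-cluster gene and another.

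The unequal slopes changed the make-up of the Hox8 and Hox9 transcripts. At 6 somites in wt, Hoxb9 and Hoxb8 together made up 62.9% ± 4.20 (SD, n = 4) of the summed RPKM of the 7 genes, with embryos from 57.1% to 66.7%. At 11 somites they made up 42.2% ± 4.79 (SD, n = 3), with embryos from 38.3% to 47.5%, so the stages did not overlap. Hoxb9 alone went from 48.9% to 33.6%. Hoxc8 went from 21.2% to 27.5%, Hoxa9 from 5.05% to 9.78%, Hoxc9 from 2.57% to 6.67%, Hoxd8 from 3.15% to 6.81% and Hoxd9 from 5.10% to 7.08%. In mat del the B-cluster pair went from 65.8% ± 4.12 (SD, n = 4) to 38.9% ± 0.16 (SD, n = 2). These shares are a description, and they follow from the levels above.

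**Figure D3:**
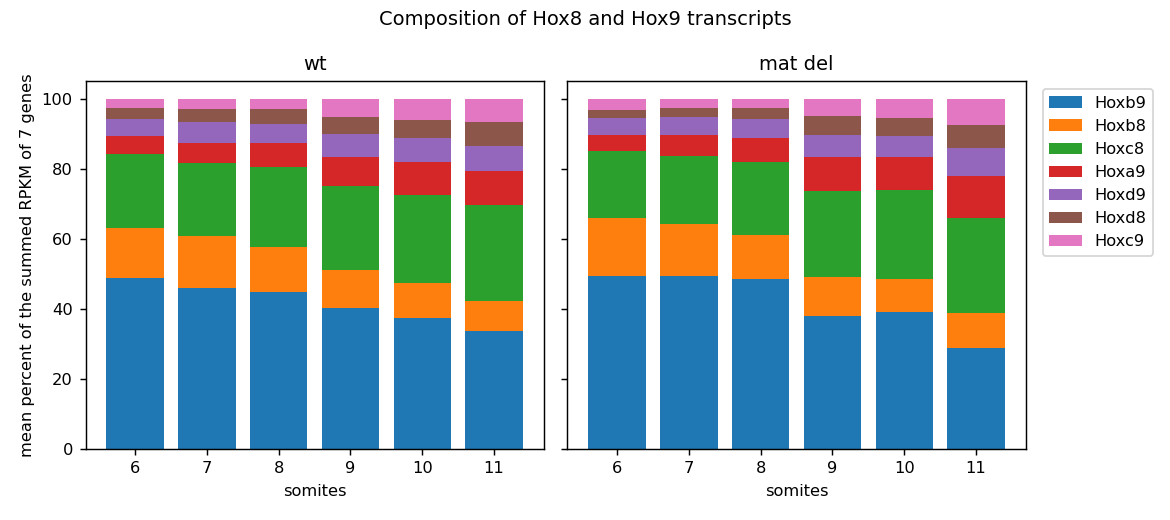
Mean percent of the summed RPKM of the 7 genes (vertical axis) contributed by each gene at 6 to 11 somites (horizontal axis) in wt and mat del embryos. Hoxb9 and Hoxb8, at the bottom of each bar, shrink from 62.9% to 42.2% in wt and from 65.8% to 38.9% in mat del.

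Hoxc9 was also followed from stage to stage. At 8 somites wt embryos were at 2.61, 3.33 and 2.85 and at 9 somites at 3.81, 3.97 and 4.49 log2 RPKM. In mat del they were at 3.36 and 2.75 and then at 3.71 and 4.25. No embryo of 8 somites reached one of 9 somites in either genotype. Between 8 and 9 somites the stage mean moved by 1.16 in wt and by 0.93 in mat del, the largest move of this gene between neighbouring stages in both. In wt the largest upward move of Hoxc8 (0.43), Hoxd8 (0.57), Hoxa9 (0.62), Hoxd9 (0.60) and Hoxb9 (0.21) fell at the same place, while in mat del only those of Hoxc8 (0.30) and Hoxd8 (0.84) did. How many other genes have their largest move at this place was not examined, so the agreement may not be particular to these genes. These means share the same embryos, and in wt 2 of 3 were male at 8 somites and 1 of 3 at 9 somites. The part of sex in these moves was not tested. A step at 9 somites added to the straight line was placed where the move of Hoxc9 had been seen. It therefore restates that move and is no independent evidence of it. It gave 0.77 for Hoxc9 (SE 0.25, unadjusted p = 0.00395, adjusted p = 1, edgeR). It was the one member of 7 past an unadjusted p under 0.05, against 3% of 15762 genes, and 0 genes (0%) passed after adjustment. Curvature over somites in wt was -0.015 for Hoxc9 (SE 0.037, unadjusted p = 0.698, edgeR) and gave 0 members, against 3.66% of 15667 genes at an unadjusted p under 0.05 and 0 genes after adjustment.

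The effect of maternal deletion was then compared at matched somite number. Over all stages 0 of 7 members passed after adjustment, against 0.0125% of 15978 genes, and 1 passed at an unadjusted p under 0.05, against 5.67% of genes. That gene was Hoxd8, at -0.24 (SE 0.11, unadjusted p = 0.0359, adjusted p = 0.867), and without mat del 6 somites replicates 1 and 2 it was at -0.15 (unadjusted p = 0.152), which left 0 of 7 members. The other 6 lay between -0.077 (Hoxc8) and 0.075 (Hoxb8), with standard errors of 0.072 to 0.11.

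The values of Hoxd8 at the early stages were as follows. At 6 somites the wt embryos were at 3.12, 3.13, 3.32 and 2.38 and the mat del embryos at 1.92, 1.95, 2.93 and 2.79 log2 RPKM. The groups overlapped through the lowest wt embryo, and mat del replicates 1 and 2 were the lowest of all. At 7 somites the wt embryos were at 3.0045, 3.71, 3.34 and 3.19 and the mat del embryos at 2.78, 3.01 and 3.06, again with overlap.

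At 6 to 8 somites the log2 difference of Hoxd8, mat del minus wt, was -0.46 (SE 0.16, unadjusted p = 0.00992, adjusted p = 0.486, edgeR). It was the one member past an unadjusted p under 0.05, against 7.77% of 15652 genes, and 0 members passed after adjustment, against 0.00639%. Without the pair of libraries rich in Gm42418 it was at -0.30 (unadjusted p = 0.0664), and 2 other members, Hoxb8 (0.25, unadjusted p = 0.0213, adjusted p = 0.596) and Hoxb9 (0.21, unadjusted p = 0.0260, adjusted p = 0.612), were under 0.05 in its place. Within 6 somites alone Hoxd8 was at -0.60 (edgeR unadjusted p = 0.0407), and without that pair at -0.21 (edgeR unadjusted p = 0.474). The latter fit held 2 mat del embryos, and 1 of them, replicate 3, held 20 counts of Hoxd8. Among cell type markers 0 passed after adjustment in this window. At an unadjusted p under 0.05 were 3 of the 3 somite markers tested, of 6 in the list (median log2 difference 1.499, with summed levels of 4.38 to 69.0 CPM in mat del and 3.14 to 12.2 in wt), 3 of 6 endoderm markers (median -0.58), 2 of 5 endothelium markers (median -0.26) and 2 of 8 tailbud markers (median 0.14). Of the lateral plate mesoderm markers 1 of 5 was (median -0.27), of the neural tube markers 1 of 3, and of the primitive erythroid and heart markers 0. Their part in the result was not tested.

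At 9 to 11 somites no member was at an unadjusted p under 0.05 (0 of 7, against 1.88% of 15757 genes, and 0.00635% after adjustment). Hoxd8 was at 0.028 (SE 0.12) and Hoxa9 at 0.20 (SE 0.096, unadjusted p = 0.0575, adjusted p = 1). The difference between the windows was 0.50 for Hoxd8 (SE 0.21, unadjusted p = 0.0212, adjusted p = 1), the one member of 7 at an unadjusted p under 0.05, against 3.55% of 16265 genes, with 0 genes after adjustment. Without mat del 6 somites replicates 1 and 2 it was 0.36 (unadjusted p = 0.0884), and in females alone 0.38 (unadjusted p = 0.173). The slope difference of Hoxd8, mat del minus wt, was 0.14 per somite (SE 0.059, unadjusted p = 0.0221, adjusted p = 1), also the one member, against 3.92% of 15978 genes, and 0 genes after adjustment. Without the pair of libraries the slope difference was 0.087 (unadjusted p = 0.154).

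**Figure D4:**
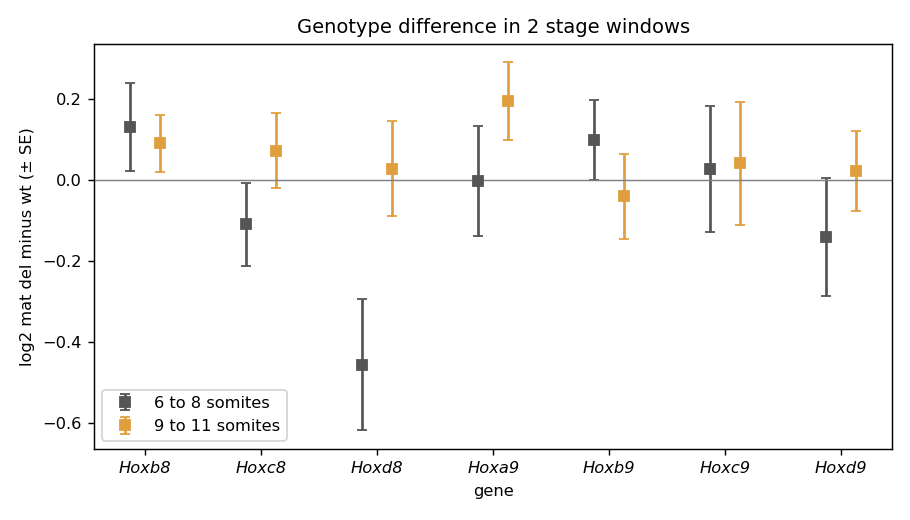
Log2 difference of mat del minus wt (vertical axis) for each gene at 6 to 8 somites (grey) and at 9 to 11 somites (orange), with bars of 1 SE, stage and sex in the fit. Hoxd8 at 6 to 8 somites, at -0.46, lies farthest from 0, and it did not pass after adjustment.

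Single stages were also compared. At 6 somites 2 members were at an unadjusted p under 0.05, Hoxc8 (-0.27, SE 0.11, edgeR unadjusted p = 0.0310) and Hoxd8, against 5.54% of genes. With the replicate number as a block Hoxd8 was at -0.56 (edgeR unadjusted p = 0.0674) and Hoxc8 at -0.26 (edgeR unadjusted p = 0.0356). Without replicates 1 and 2 of mat del neither Hoxc8 nor Hoxd8 was under 0.05, with Hoxc8 at -0.17 (edgeR unadjusted p = 0.244). Hoxb8 was then the 1 member (0.42 against 0.094 with them, edgeR unadjusted p = 0.0365). That fit held only replicates 3 and 4 of mat del. Replicate 3, the shallowest library, held 155 counts of Hoxb8 and 20 of Hoxd8. Its Hoxb8, at 5.94 log2 RPKM, was the highest of all embryos, and replicate 4 was at 5.31. At 7 somites Hoxd8 was the 1 member (-0.38, SE 0.17, edgeR unadjusted p = 0.0421), against 4.83%. With sex as a term it was at -0.38 (edgeR unadjusted p = 0.0528), and with the block at -0.43 (edgeR unadjusted p = 0.0194). At 11 somites Hoxb9 was the 1 member (-0.24, SE 0.097, edgeR unadjusted p = 0.0320), against 8.66%. With the block it was at -0.26 (edgeR unadjusted p = 0.0902), and with sex as a term at -0.26 (edgeR unadjusted p = 0.0274). At 8, 9 and 10 somites there were 0, against 2.81%, 1.15% and 0.56%. After adjustment 0 genes passed at any single stage, in edgeR's quasi-likelihood test, from 14191 to 15332 genes.

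Whether the members vary together among embryos of the same stage and genotype was asked by subtracting each group's mean. Sex was not taken out, so differences between males and females of a group remain. In wt at 9, 10 and 11 somites the male was the lowest embryo in Hoxc8, Hoxd8, Hoxa9 and Hoxc9. In mat del at 7 somites the female was the lowest in Hoxc8, Hoxa9 and Hoxc9. The part of sex in the correlations was not tested. Of the 21 pairs, 10 were correlated at an adjusted p under 0.05 over the pairs (permutation within groups, n = 37 embryos). How often pairs of other genes pass was not examined, so this count has no background share and may not be particular to these genes. Hoxc8 with Hoxa9 was strongest, with r = 0.78 (permutation p = 2e-05, adjusted p = 2.10e-04) and rho = 0.78 (permutation p = 5e-05), and r = 0.78 without the 2 embryos farthest from the median in Hoxc8. Hoxc8 with Hoxc9 had r = 0.77, Hoxa9 with Hoxc9 r = 0.76, Hoxd8 with Hoxc9 r = 0.73 and Hoxb8 with Hoxb9 r = 0.71, all with an adjusted permutation p of 2.10e-04 to 7.87e-04. Hoxc8, Hoxa9, Hoxc9 and Hoxd8 were pairwise correlated in all 6 of their pairs, with r from 0.66 to 0.78. Hoxd9 had r of -0.33 to 0.31, with 0 of its 6 pairs past the threshold. Its r with Hoxb8 was -0.33 (permutation p = 0.273) and 0.076 without the 2 farthest embryos. Hoxd9 and Hoxd8, neighbours in 1 cluster, gave r = 0.23 (permutation p = 0.431, adjusted p = 0.431) and 0.37 without the 2 farthest embryos, and Hoxd9 with Hoxc9 gave 0.28 and 0.43. Whether these r differ from those of the other pairs was not tested. Values of an embryo share its library and its scaling.

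**Figure D5:**
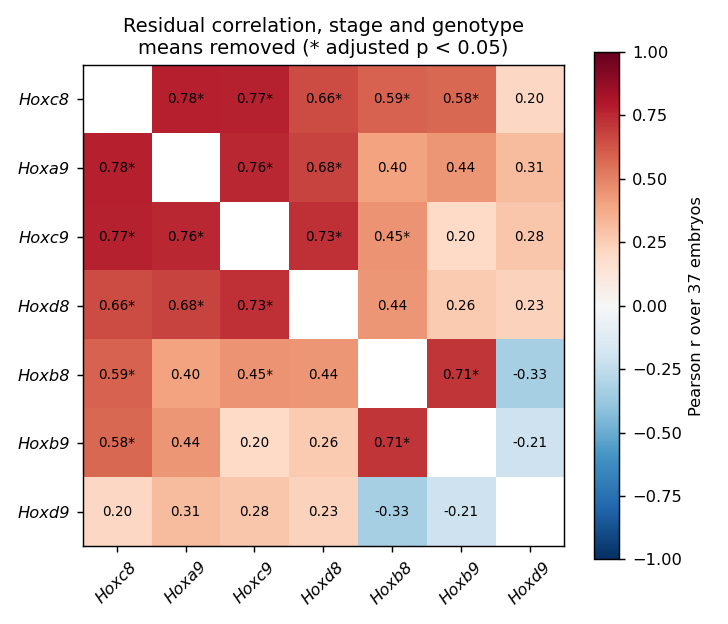
Pearson r between each pair of genes over 37 embryos, after the mean of each stage and genotype group was subtracted, on a colour scale from -1 to 1, with stars for an adjusted permutation p under 0.05. The block of Hoxc8, Hoxa9, Hoxc9 and Hoxd8 at the upper left carries a star throughout, and no pair of Hoxd9 does.

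Genes with the pattern most like the members were sought over all 37 embryos, stage included. The members share no single pattern. The 5 that rose had r of 0.75 to 0.92 with each other. With these 5, Hoxb8 had r of -0.47 to -0.11 and Hoxb9 r of -0.23 to 0.16, so the mean of all 7 mostly follows the 5. The 5 genes whose log2 CPM correlated best with the mean of the 7 standardised members were Hoxc6 (r = 0.93), Hoxa7 (r = 0.91), Gdf11 (r = 0.88), Pard6g (r = 0.88) and Adgra3 (r = 0.88). Gdf11 encodes the ligand that helps to set the change from trunk to tail. The single most alike gene was Hoxc6 for Hoxc8 (r = 0.91), Hoxd8 (r = 0.91) and Hoxa9 (r = 0.95), Insig1 for Hoxc9 (r = 0.89), Tpm1 for Hoxd9 (r = 0.88), Asrgl1 for Hoxb8 (r = 0.82) and Ccnd2 for Hoxb9 (r = 0.78). These are descriptions with no test.

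The wider pathway was read from fixed lists. Of 8 Hox genes of groups 5 to 7, 2 rose in wt, Hoxc6 (0.21 per somite, SE 0.034, adjusted p = 4.19e-04) and Hoxa6 (0.31, SE 0.086, adjusted p = 0.0297), and 3 rose in mat del, beside the 3.13% and 1.93% of all genes that rose. The B-cluster genes of these groups did not pass in wt either. They were Hoxb5 (0.0045, edgeR adjusted p = 0.967), Hoxb6 (-0.067, edgeR adjusted p = 0.0562) and Hoxb7 (0.059, edgeR adjusted p = 0.158). From other clusters, Hoxa5, Hoxa7 and Hoxc5 did not pass in wt. Of the 8 tested of groups 10 to 13, 1 rose in wt, Hoxc10 (0.48, SE 0.090, adjusted p = 0.00171), next to Hoxc9, at a mean log2 RPKM of 1.36 over wt. In mat del 1 rose too, a different gene, Hoxd13 (0.37, SE 0.097, adjusted p = 0.0403), while Hoxc10 was at 0.50 (SE 0.14, adjusted p = 0.0550). Of 17 regulators of trunk Hox genes and trunk-to-tail timing, 3 rose and 3 fell in each genotype, beside 3.51% of all genes falling in wt and 1.14% in mat del. In wt, Gdf11 rose by 0.24, its receptor gene Tgfbr1 by 0.096 and Cyp26a1, which clears retinoic acid, by 0.20, while Cdx1 fell by 0.34, Pou5f1 by 0.53 and Nr6a1 by 0.22 per somite. Of 9 partners of Hox proteins, 2 rose in wt, Pbx2 (0.065) and Pknox1 (0.097), and 0 passed in mat del. In the maternal comparison over all stages 0 of these context genes passed. Median slopes of these 4 lists in wt were 0.042, 0.16, -0.032 and 0.017.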

How the data were processed

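Per the labels and the methods of the study, RNA was extracted from single tailbuds, poly(A) libraries were made with a stranded or non-stranded TruSeq kit (which library had which was not given in the sources used here), and 1-end reads were trimmed with Trim Galore 0.4.4, mapped to GRCm38.p6 with HISAT2 2.0.5 and quantified in SeqMonk. The authors deposited raw counts per gene and log2 RPKM values of the Hox genes. The authors' table of differential expression (fold changes and p-values) and 24 columns of their stage means and mean differences beside the log2 RPKM values were not used.

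Counts (35542 genes, after 49 repeated rows were dropped) were fitted with edgeR 4.0.16 (R 4.3.3): filterByExpr at a minimum of 10 counts, TMM scaling, quasi-likelihood tests, sex as a term except within single stages, and Benjamini-Hochberg adjustment over all genes tested at a threshold of 0.05. Slopes are per somite. Levels and shares come from the deposited log2 RPKM. Permutation tests used 100000 resamples, two-sided, without a sex term. Fits were tested on simulated data. Within single stages that held both sexes, sex as a term was an alternative. Alternatives were other scalings, no filter, DESeq2 1.42.0, a replicate block, no sex term, females alone, libraries of at least 5000000 counts, leaving out the libraries rich in Gm42418, and leaving out each embryo. Same-numbered embryos of the 2 genotypes were checked for shared deviations: 4 of 16 pairs correlated over 0.1 (range -0.286 to 0.582), so numbers were not taken to pair embryos.

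The members, the lists (Hox groups 5 to 7 and 10 to 13, regulators, partners, and markers of tailbud, somite, neural tube, lateral plate mesoderm, primitive erythroid cells, endothelium, endoderm and heart) and the tests were chosen with earlier results of these data known. Named context genes are, per list, up to 4 in each direction by smallest p in the wt slope, joined by the rest of Hox groups 5 to 7. Like genes are those of highest r.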

Additional observations from a re-analysis of the deposited data

How the results depend on the processing

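With other scalings, no filter, DESeq2, no sex term, females alone, libraries of at least 5000000 counts, or the 2 libraries rich in Gm42418 left out, the number of members called stayed within 1.5 times of the reported number for every comparison to which the setting applied. The replicate number as a block (replicate block) left 5 members called for the slope in wt, 5 for the slope in mat del and 0 for each genotype comparison, and changed no call. When each embryo was left out in turn, both slopes kept 5 called members and every genotype comparison 0. Pairs of members with different slopes ranged from 18 to 19 in wt and from 13 to 16 in mat del, and correlated pairs from 8 to 13. Leaving out a replicate of a stage with 2 mat del embryos leaves 1, which is then assumed to vary like the other groups. Among single genes, the sign of the Hoxb9 slope in mat del, which had passed no test, turned to 0.00978 in females alone, where fewer embryos were fitted. Depth limits low genes: in the shallowest library Hoxd9 held 13 counts. The deposited log2 RPKM gave the same sign for each member's slope in both genotypes. The setting without mat del 6 somites replicates 1, 2 and 3 was chosen after the data were seen, and with it Hoxd8 at 6 to 8 somites was at -0.32 (unadjusted p = 0.0675).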
